A study of Mus musculus with 6 samples.

Results

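DNA topoisomerases cut DNA strands, let them pass or turn, and rejoin them. The genes examined were the 6 mouse genes that encode these enzymes with a Top symbol, Top1, Top1mt, Top2a, Top2b, Top3a and Top3b, together with Mki67, whose protein marks dividing cells. They were the 7 rows, of the 21006 genes in the deposited tables, whose Ensembl identifier carried one of these symbols, and all 7 were present. Prefrontal cortex was taken from wild type C57BL/6 mice, all male and labelled as 18 months old, although the sample titles carry the text 17M, which the labels do not explain. Postoperative neurocognitive disorder was modelled in the PND group (n = 3). It was exposed to 1.5% isoflurane for anesthesia and then had an exploratory laparotomy of 30 min, also under isoflurane. In this operation the abdomen is opened and its organs are inspected, and lidocaine cream and povidone iodine were put on the wound. The control (CON) group (n = 3) had none of these. Both groups went through behavioral tests. The tissue was taken under isoflurane after the last of these tests, days after the operation. CON had no anesthesia without surgery or sham operation, so that the parts of the treatment cannot be told apart. The whole dissected tissue was sequenced, so that fewer cells of a type and less RNA per cell cannot be told apart.

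Type I enzymes cut one strand of the helix. Top1 does so in the nucleus ahead of RNA polymerase, Top1mt in mitochondria, and Top3a and Top3b act on single-stranded DNA, with Top3b also acting on RNA. Type II enzymes cut both strands. Top2a is made in dividing cells, where it untangles sister chromosomes, whereas Top2b is the form of nerve cells and other cells that have left the cell cycle. In neurons, Top1 and Top2b are known for their part in the transcription of long genes. Top2a was named by the study as a hub gene, that is, a gene with many interaction partners among the genes that the study called changed. Since that choice was made on these same samples, the values of Top2a below are a description and no independent evidence.

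The promoters of the enzymes of dividing and non-dividing cells are shown because the cell-cycle genes of this group share letters there. Promoter sequences came from RefSeq on GRCm38.p6, which held 5 of the 7 genes. The 250 bases before the transcription start of Top2a (chr11:99024190-99024439, minus strand), Mki67 (chr7:135716380-135716629, minus strand) and Top2b (chr14:16364956-16365205, plus strand) are given 5′ to 3′. Of these sequences, capitals mark the CCAAT box (CCAAT or ATTGG) and the cell-cycle genes homology region, or CHR (TTTGAA or TTCAAA, and the variant TTCGAA), each searched on both strands. No marked match overlaps another here.
Top2a: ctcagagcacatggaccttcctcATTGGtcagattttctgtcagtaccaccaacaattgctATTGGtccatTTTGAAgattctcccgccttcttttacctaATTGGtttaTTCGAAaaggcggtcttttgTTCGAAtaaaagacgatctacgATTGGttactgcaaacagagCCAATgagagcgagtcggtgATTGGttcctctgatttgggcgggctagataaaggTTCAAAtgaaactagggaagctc
Mki67: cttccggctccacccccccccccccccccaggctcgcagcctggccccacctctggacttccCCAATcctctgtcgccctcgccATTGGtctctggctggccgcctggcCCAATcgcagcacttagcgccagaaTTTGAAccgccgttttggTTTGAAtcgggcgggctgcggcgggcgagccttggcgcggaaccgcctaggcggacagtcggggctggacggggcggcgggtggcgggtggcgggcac
Top2b: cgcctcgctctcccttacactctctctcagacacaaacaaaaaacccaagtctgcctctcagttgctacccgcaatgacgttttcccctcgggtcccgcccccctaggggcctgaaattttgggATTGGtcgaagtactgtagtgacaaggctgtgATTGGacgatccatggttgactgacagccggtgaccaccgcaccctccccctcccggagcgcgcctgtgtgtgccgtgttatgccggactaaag
The Top2a promoter held 6 CCAAT boxes, 2 CHR matches and 2 matches to the variant. At least 6 CCAAT boxes were found in 0.0578% of the 32851 promoters of this length, and at least 2 in 10.1%. The Mki67 promoter held 3 CCAAT boxes and 2 CHR matches, and the Top2b promoter held 2 CCAAT boxes and 0 matches to either CHR form. The Top1 promoter held 0 CCAAT boxes and 0 CHR matches, and the Top3b promoter held 1 CCAAT box. A CCAAT box together with either CHR form was found in 6.02% of all promoters. These matches describe letters in this window and not bound sites.

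The levels were given in FPKM, a fragment number divided by exon length and by sequencing depth, which allows genes to be compared per length. FPKM summed to between 215640 and 240447 per sample. The depth was not given, and the steps of the low values corresponded to between 7211218 and 9383360 fragments per sample. Of all genes, 18185 were tested, those that reached 0.1 FPKM on average, and all 7 genes of the group were among them. Top2a passed this filter only through CON, since its PND mean (0.0853 FPKM) lay below it. Neuronal markers were set beside the label of the tissue, and the summed FPKM of 5 of them lay between 625 and 747 in all 6 samples. Most of this sum came from Snap25. Such markers cannot tell prefrontal cortex from other brain regions, so the dissection was not tested. Errors given as ± are SD over 3 samples per group throughout. Snap25, a protein of synaptic vesicle fusion, had a level of 482 ± 54.3 FPKM in PND, against 499 ± 50.4 FPKM in CON.

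Top2b had the highest level of the 7 genes, and Top2a had the lowest. The mean over the 6 samples was 39.7 FPKM for Top2b, 20.4 for Top1, 4.44 for Top1mt, 1.87 for Top3b, 0.606 for Top3a, 0.332 for Mki67 and 0.137 for Top2a. For each pair of neighbours in this order, the lowest sample of the higher gene lay above the highest sample of the lower gene. The pair closest together was Top3a and Mki67, whose ratio within a sample was at least 1.11. Top2b lay above 96.5% of the genes tested, Top1 above 91.3% and Top2a above 3.31%. Top1 and Top2b together made up 85.99% to 91.4% of the summed FPKM of the 6 topoisomerases in each sample. The topoisomerase mRNA of this tissue was thus mainly that of the nuclear type I enzyme and of the type II enzyme of non-dividing cells.

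**Figure D1:**
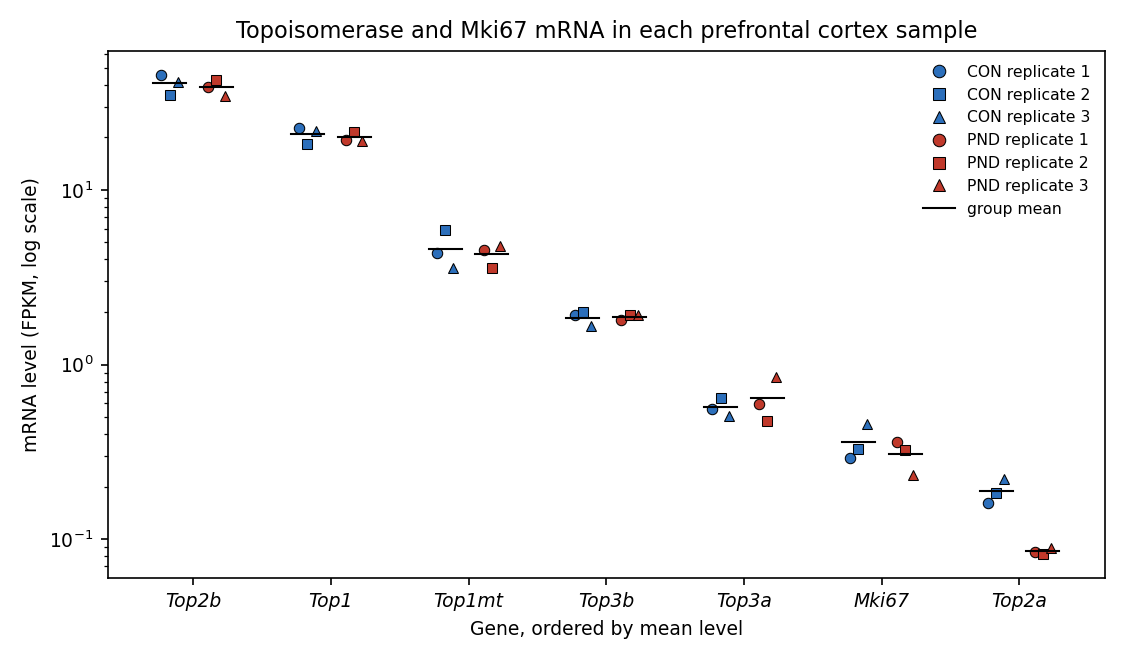
Levels of the 7 genes in FPKM on a log scale, with 1 point per sample, CON in blue and PND in red, and the group mean as a line. The groups overlap for 6 genes, and for Top2a the 3 PND samples (highest 0.0893 FPKM) lie below the 3 CON samples (lowest 0.162 FPKM).

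To ask whether anesthesia and surgery went along with a change in these genes, PND was compared with CON by limma over all genes tested. None of the 7 genes (0) had an unadjusted p below 0.05, against 3.13% of all genes tested (1.73% higher and 1.4% lower in PND), and 0 passed the cut-off of the study (an absolute log2 fold change above 1 together with an unadjusted p below 0.05), against 1.33%. The cut-off was applied here to limma on log2(FPKM + 0.1), while the study took folds from FPKM and names both edgeR and limma for its tests, so that a gene called there can miss the cut-off here. On the FPKM means, Top2a in PND stood at 45.3% of CON. The adjusted p of limma (Benjamini-Hochberg over all genes tested) was 0.9999 for each, and 0.011% of all genes tested had one below 0.05. With limma-voom on estimated fragments, and with limma without its intensity trend, 1 of the 7 genes had an unadjusted p below 0.05, which was Top2a both times, against 2.91% and 3.62% of all genes tested in these fits. With limma-voom 1 of the 7 genes, again Top2a, passed the cut-off of the study, as did 260 of all 18076 genes in that fit. The groups did not overlap for 1 of the 7 genes, Top2a, against 7.66% of all genes tested.

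**Figure D2:**
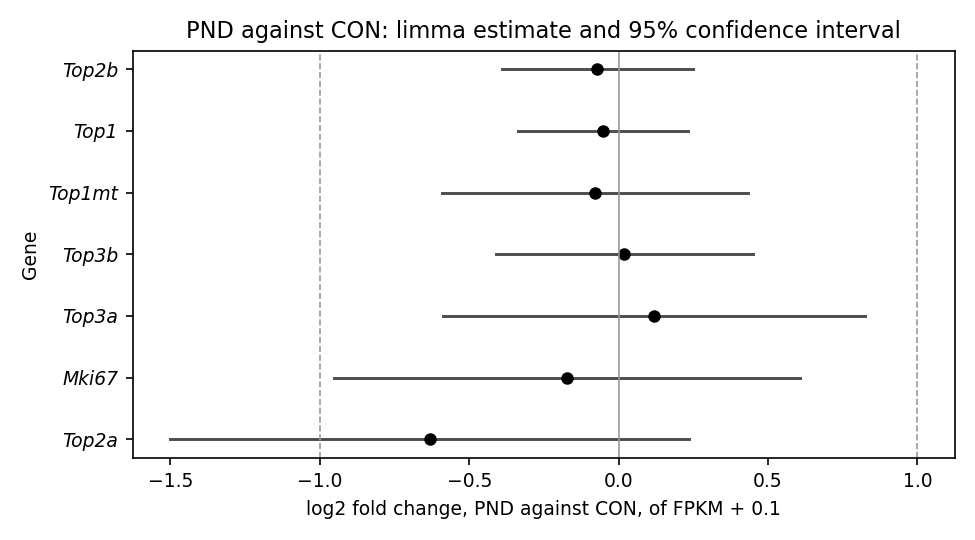
Log2 fold change of PND against CON on the log2(FPKM + 0.1) scale for the 7 genes, with 95% confidence intervals of limma, and dashed lines at an absolute value of 1. All 7 intervals include 0, and they are narrowest for Top1 (-0.34 to 0.23) and widest for Top2a (-1.50 to 0.24).

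Top2a, the type II enzyme of dividing cells (ENSMUSG00000020914, chromosome 11, 98992943 to 99024189 on GRCm38, minus strand, protein-coding), was measured at 0.0842, 0.0825 and 0.0893 FPKM in PND replicates 1 to 3. In CON replicates 1 to 3 it was at 0.162, 0.183 and 0.220 FPKM. All PND samples lay below all CON samples, and the gap between the groups was larger than the spread within either. The PND mean of 0.0853 ± 0.00355 FPKM and the CON mean of 0.188 ± 0.0296 FPKM gave the stated 45.3%. An exact two-sided permutation test of the group means gave p = 0.10, which is the smallest value that 3 samples against 3 allow. Groups that do not overlap, with PND lower, were found for 3.88% of all genes tested. The log2 fold change was -0.63 (SE 0.37) on the log2(FPKM + 0.1) scale, where the added 0.1 shrinks the measured difference of so low a gene. Its unadjusted limma p was 0.130 and its adjusted p was 0.9999.

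The Top2a values rested on few fragments. With the exon length of GENCODE M21 they corresponded to between 5.86 and 7.55 fragments per PND sample and between 10.9 and 14.3 per CON sample. These were not whole numbers, and a length of 10.7 kb in place of the annotated 9013 bases, found as the smallest common factor that did so, brought all 6 within 0.0368 of a whole number. The count was then 8, 7 and 9 fragments in PND replicates 1 to 3 and 13, 16 and 17 in CON replicates 1 to 3. Before any scaling for depth, each PND count had an exact Poisson interval (95%) that reached at least 14.4 and so included the lowest CON count of 13. The unscaled CON counts of 16 and 17 lay above the upper bounds of PND replicates 1 and 2 (15.8 and 14.4). They lay within that of PND replicate 3 (17.1). PND replicate 3 had the largest estimated depth (9383360 fragments) and CON replicate 3 the smallest (7211218). Summed over the replicates, the estimate was 24 fragments in PND (15.4 to 35.7) and 46 in CON (33.7 to 61.4), before any scaling for depth. These intervals cover counting error only. Estimated depth lay between 7887963 and 9383360 fragments in PND samples and between 7211218 and 8140389 in CON samples. The overlap of the unscaled intervals is therefore no comparison of levels. The standard error of Top2a was 0.37 with the intensity trend of limma and 0.15 without it, and the unadjusted p moved from 0.130 to 0.00495. The voom fit gave a log2 fold change of -1.08 with an unadjusted limma p of 0.0178, and the adjusted p stayed at 0.919 or above in both. Without a filter on low values the SE was 0.28 and the unadjusted limma p was 0.0603.

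**Figure D3:**
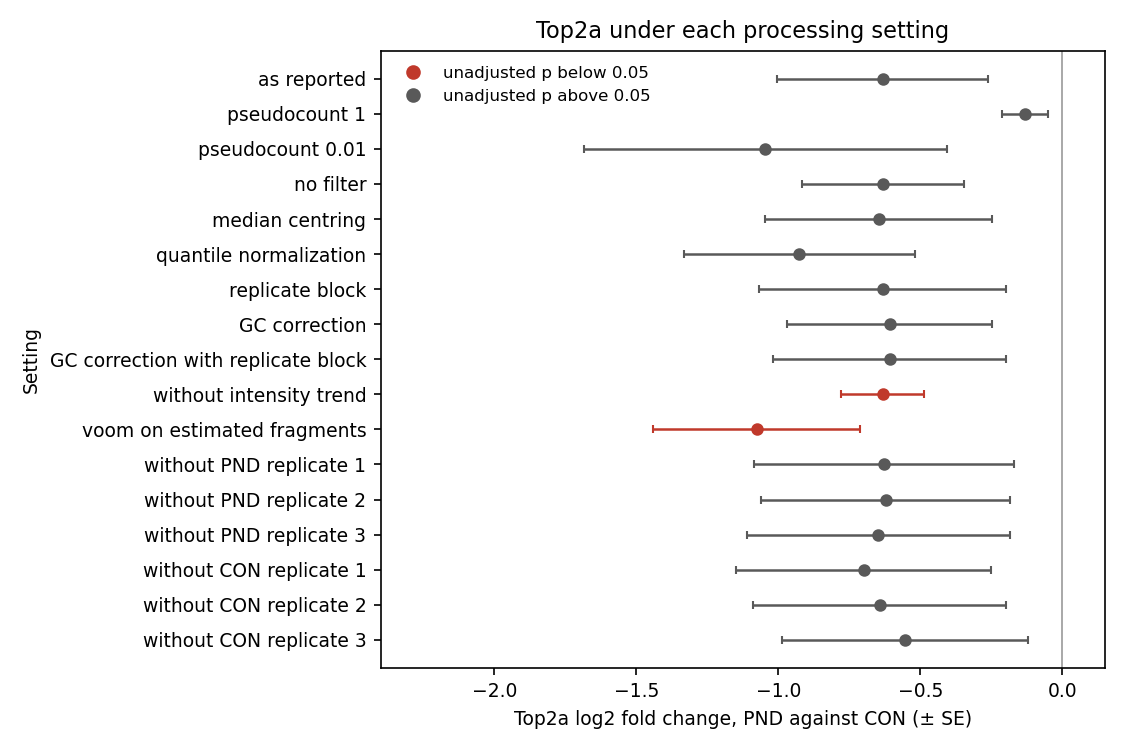
Log2 fold change of Top2a, PND against CON, with its SE under each setting of the processing, in red where the unadjusted p was below 0.05. All values lie below 0, between -1.08 and -0.13, and 2 of the 16 alternatives are red.

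Mki67, whose protein Ki-67 coats mitotic chromosomes (ENSMUSG00000031004, chromosome 7, 135689784 to 135716361, minus strand), did not share this separation. It was at 0.359, 0.326 and 0.233 FPKM in PND replicates 1 to 3 and at 0.291, 0.329 and 0.455 FPKM in CON replicates 1 to 3. The groups overlapped, with PND replicate 1 above CON replicates 1 and 2. The log2 fold change was -0.17 (SE 0.33) with a 95% interval from -0.95 to 0.61 and an unadjusted limma p of 0.620. With its annotated exon length, fragment numbers came within 0.0976 of whole numbers, at 32, 26 and 22 in PND and 22, 27 and 33 in CON. The sums were 80 fragments in PND and 82 in CON, before any scaling for depth, and on the FPKM scale PND stood at 85.4% of CON. The ratio of Top2b to Top2a was 455 ± 66.8 in PND and 221 ± 53.4 in CON, with Top2b levels that overlapped between the groups.

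Among the type I and type II enzymes with high levels, Top2b (ENSMUSG00000017485, chromosome 14, 16365179 to 16435462, plus strand) was at 38.8, 42.8 and 34.5 FPKM in PND and at 45.7, 35.1 and 41.4 FPKM in CON. The highest and the second lowest of the 6 values both belonged to CON. The log2 fold change was -0.07 (SE 0.14), with a 95% interval from -0.39 to 0.25 and an unadjusted limma p of 0.619. Exons of Rarb, a retinoic acid receptor gene on the opposite strand, overlap 1793 of the 14613 exon bases of Top2b. Rarb was at 8.29 ± 0.701 FPKM in PND and 7.90 ± 2.13 FPKM in CON, and as the use of strand in counting was not given, reads of the 2 genes in that stretch cannot be told apart.

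Top1 (ENSMUSG00000070544, chromosome 2, 160645888 to 160722764, plus strand) was at 19.4, 21.4 and 19.2 FPKM in PND and at 22.5, 18.2 and 21.6 FPKM in CON. Both the highest and the lowest sample were CON samples. Its log2 fold change was -0.05 (SE 0.12), and the 95% interval from -0.34 to 0.23 was the narrowest of the group. The unadjusted limma p was 0.684.

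Top1mt, the type I enzyme of mitochondria (ENSMUSG00000000934, chromosome 15, 75657035 to 75678800, minus strand), was at 4.51, 3.59 and 4.76 FPKM in PND and at 4.35, 5.87 and 3.58 FPKM in CON. CON again held both ends of the range. The log2 fold change was -0.08 (SE 0.22), with a 95% interval from -0.59 to 0.43 and an unadjusted limma p of 0.725. Top3b, which partners with Tdrd3 on RNA and DNA (ENSMUSG00000022779, chromosome 16, 16870736 to 16892990, plus strand), was the steadiest of the 7, with a coefficient of variation of 6.30% over the 6 samples. It was at 1.81, 1.91 and 1.93 FPKM in PND and at 1.92, 1.99 and 1.66 FPKM in CON, which gave 0.02 as the log2 fold change (SE 0.18, 95% interval -0.41 to 0.45). Top3a, which resolves crossed DNA strands together with Blm and Rmi1 (ENSMUSG00000002814, chromosome 11, 60740058 to 60777365, minus strand), was at 0.596, 0.478 and 0.849 FPKM in PND and at 0.559, 0.647 and 0.507 FPKM in CON. PND held both ends of the range here, and the log2 fold change was 0.12 (SE 0.30, 95% interval -0.59 to 0.82). The unadjusted limma p was 0.917 for Top3b and 0.706 for Top3a.

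The sample pattern of Top1 and Top2b differed from that of Top1mt. Top1 and Top2b, with a GC content of 42.1% and 42.2%, were both highest in CON replicate 1 and were both low in CON replicate 2 and PND replicate 3. Top1mt, with 55.2%, was highest in CON replicate 2 and second highest in PND replicate 3. Over the 6 samples, Pearson's r of the log2 levels of Top1 and Top2b was 0.94 (exact permutation p = 0.0139) and Spearman's rho was 0.89 (exact permutation p = 0.0333). After Benjamini-Hochberg adjustment over the 21 pairs of the 7 genes, these p-values were 0.292 and 0.245 and no longer below 0.05. Without the 2 samples farthest from the median of Top1, r was 0.87. For Top1 and Top1mt, r was -0.80 (exact permutation p = 0.0472, adjusted 0.331) and rho was -0.83 (exact permutation p = 0.0583, adjusted 0.245), and r was -0.996 without those 2 samples. For Top2b and Top1mt, r was -0.70 (exact permutation p = 0.121, adjusted 0.383). Top2a, with a GC content of 43.4%, had an r of 0.07 with Top1mt.

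Genes near the GC content of Top2b deviated, by their median, in the same direction as Top2b in these samples. The median log2 deviation from the gene mean, over 1122 genes within 1 percentage point of the GC content of Top2b, was 0.156 in CON replicate 1, -0.0944 in CON replicate 2 and -0.0916 in PND replicate 3. Top2b itself deviated by 0.208, -0.171 and -0.197 in these samples. For the 910 genes near the GC content of Top1mt the same medians were -0.369, 0.335 and 0.252, and Top1mt itself deviated by -0.0103, 0.414 and 0.117. In PND replicates 1 and 2 and CON replicate 3, Top1mt deviated by 0.0429, -0.280 and -0.284. The medians there were 0.0810, -0.222 and -0.0192. In CON replicates 1 and 2 and PND replicate 3, Top3b did not follow the 1064 genes near its GC content. Its deviations there were 0.0390, 0.0892 and 0.0424, where their medians were -0.238, 0.232 and 0.177. After correction for GC content, the spread within groups (pooled SD on the log2 scale) moved from 0.129 to 0.0623 for Top1, from 0.175 to 0.0860 for Top2b and from 0.290 to 0.214 for Top1mt. It moved from 0.106 to 0.162 for Top2a and from 0.0984 to 0.221 for Top3b. After the correction, the log2 fold change was -0.61 for Top2a, -0.021 for Top1, -0.040 for Top2b and -0.15 for Top1mt. For Top3a, Top3b and Mki67 it was 0.062, -0.036 and -0.17.

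**Figure D4:**
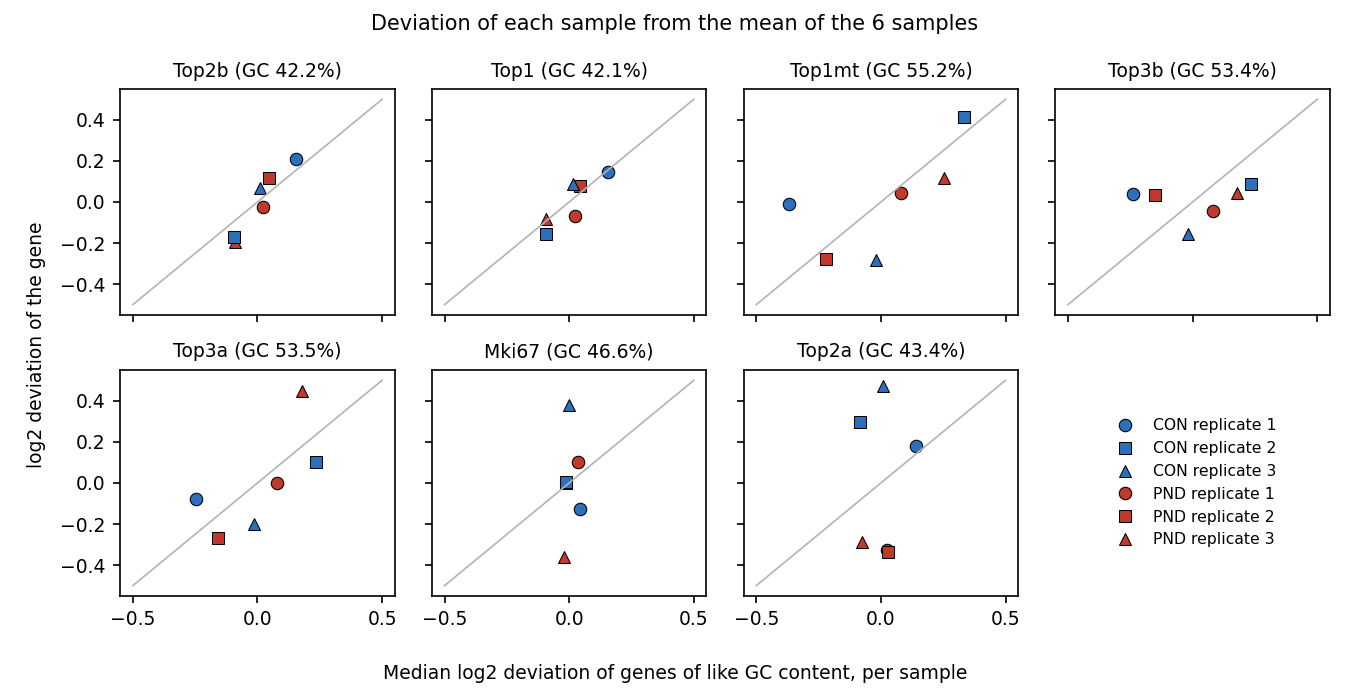
Deviation of each sample from the mean of the 6 samples on the log2 scale, for each gene (vertical axis) against the median of genes within 1 percentage point of its GC content (horizontal axis), with a line where both are equal. Top2a has its PND samples between -0.338 and -0.285 and its CON samples between 0.181 and 0.473, of which CON replicate 1 lies near the line.

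As Top2a and Mki67 stand for cell division, 43 other genes of DNA replication and mitosis were examined. The tables held 41 of them, and 30 passed the filter on low values. None of the 30 (0) had an unadjusted p below 0.05 by limma, against 3.13% of all genes tested, or by voom, against 2.91%. Their log2 fold change was above 0 for 12 and below 0 for 18, with a median of -0.08, and the median of all genes tested was 0.01. Values ranged from -0.84 for Ccnb2, a cyclin of mitosis, to 0.63 for Cdk2, a kinase of DNA synthesis. The median level of the 30 genes was 0.400 FPKM. The 11 genes below the filter included Cdk1, the kinase that starts mitosis, at a mean of 0.00752 FPKM, and Ccnb1, its cyclin, at 0.0124 FPKM, chosen here after their values were seen.

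The groups did not overlap for 3 of the 30 genes, all higher in PND, against 3.78% of all genes tested in that direction. These were 3 of the subunits of the MCM helicase, which unwinds DNA before replication. Mcm4 was at 3.81, 4.79 and 3.86 FPKM in PND and at 3.61, 3.11 and 3.41 FPKM in CON, and its log2 fold change was 0.29 (SE 0.16). The unadjusted limma p was 0.123. Mcm6 was at 1.13 ± 0.123 FPKM in PND and 0.815 ± 0.155 FPKM in CON, and Mcm7 at 1.21 ± 0.0971 and 0.975 ± 0.177 FPKM. The log2 fold changes were 0.43 and 0.30, with unadjusted p-values by limma of 0.126 and 0.246. Without PND replicate 2 the log2 fold change of Mcm4 was 0.18, and without CON replicate 3 that of Mcm7 was 0.16. The other subunits, Mcm2, Mcm3 and Mcm5, overlapped between the groups, with log2 fold changes of 0.01, 0.15 and -0.14. Ccnb2, which had the lowest log2 fold change, was at 0.240 ± 0.216 FPKM in PND, against 0.462 ± 0.196 FPKM in CON. Its groups overlapped, and the unadjusted limma p was 0.164. Its log2 fold change was -1.32 without PND replicate 3, with an unadjusted limma p of 0.0397, and -0.45 without PND replicate 1, with an unadjusted limma p of 0.447.

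**Figure D5:**
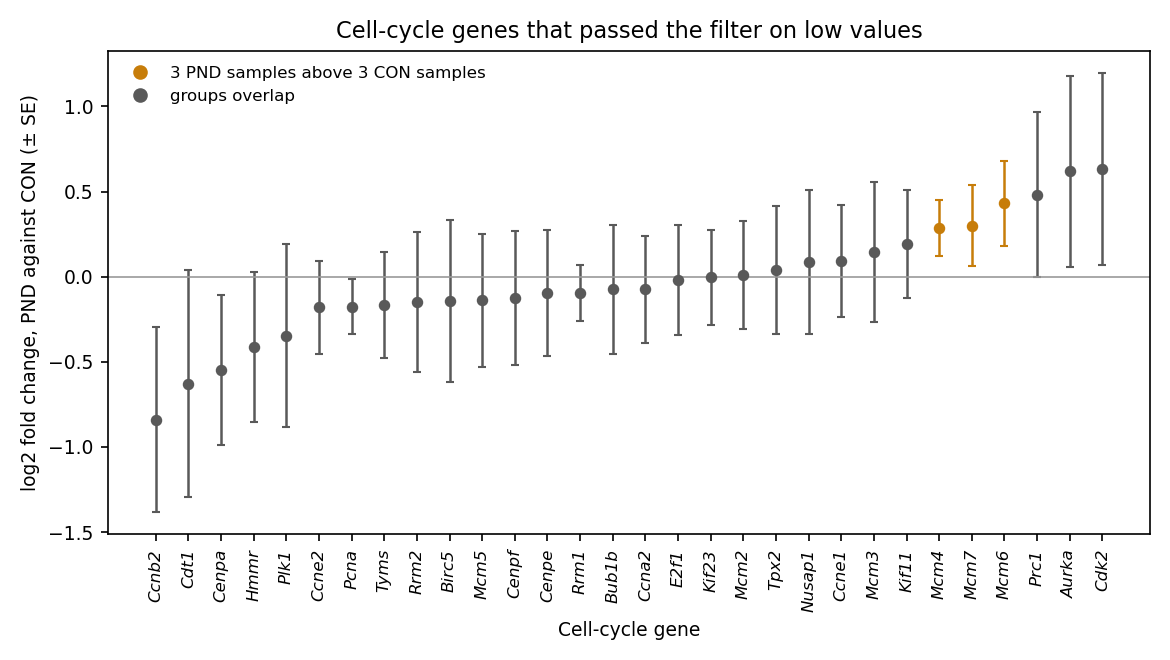
Log2 fold change of PND against CON with its SE for the 30 genes of DNA replication and mitosis that passed the filter, in order of value. The 3 genes in orange, Mcm4, Mcm6 and Mcm7, had all PND samples above all CON samples, and 0 genes had all PND samples below.

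The partners of the topoisomerases were examined next, among them Tdp1 and Tdp2, which free topoisomerases trapped on DNA, and the factors that repair the breaks. Of 27 such genes 25 were tested, and 0 had an unadjusted p below 0.05 by limma, against 3.13% of all genes tested, so that the count says little about the list. The median log2 fold change was 0.03, with values from -0.18 to 0.49. Tdp1 was at 2.01 ± 0.421 FPKM in PND and 1.95 ± 0.409 FPKM in CON, and Tdp2 at 9.30 ± 2.43 and 8.78 ± 0.460 FPKM. The smallest p belonged to Sprtn, a protease that digests proteins bound to DNA, at 3.61 ± 0.542 and 2.74 ± 0.712 FPKM, with an unadjusted limma p of 0.123. Its log2 fold change of 0.41 was 0.20 without CON replicate 1. Next came Zfp451, a SUMO ligase that acts with Tdp2, at 10.7 ± 2.59 and 8.23 ± 3.98 FPKM, Topors, a ligase that binds Top1, at 13.7 ± 1.70 and 15.0 ± 1.03 FPKM, and Topbp1, a checkpoint protein, at 2.81 ± 0.257 and 2.49 ± 0.106 FPKM, the only gene of the list whose groups did not overlap, against 7.66% of all genes tested. The log2 fold change of Zfp451 was 0.49 over all samples, 0.031 without CON replicate 3 and 0.81 without CON replicate 1. Tdrd3, the partner of Top3b, was at 10.7 ± 0.618 and 11.6 ± 1.88 FPKM, and Rmi1, the partner of Top3a, at 6.92 ± 0.559 and 6.91 ± 0.322 FPKM.

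Condensin, cohesin and Ctcf, which shape chromosome loops where Top2b acts, had 15 of 16 genes tested, again with 0 below an unadjusted p of 0.05 by limma, against 3.13% of all genes tested. Of these, 12 had a log2 fold change below 0 and 3 above, beside 8656 below 0 of all 18185 genes tested, with a median of -0.12 and values from -0.34 to 0.22. Ncapd3, a condensin subunit, had all PND samples (9.13 ± 0.547 FPKM) above all CON samples (8.01 ± 0.266 FPKM), as did 3.78% of all genes tested, with an unadjusted limma p of 0.156. Wapl, which releases cohesin, was at 22.7 ± 0.931 and 25.6 ± 2.94 FPKM. The unadjusted limma p was 0.197 for Wapl over all samples, and 0.0420 when CON replicate 2 was left out (log2 fold change -0.27). Without CON replicate 1 the log2 fold change of Wapl was -0.11. The cohesin subunits Smc1a and Stag2 had log2 fold changes of -0.17 and -0.14, and that of Smc1a was -0.062 without CON replicate 3 and -0.26 without CON replicate 2. The 10 genes that maintain mitochondrial DNA, on which Top1mt and Top3a act, had a median log2 fold change of -0.01 and values from -0.07 to 0.12, and 0 had an unadjusted p below 0.05 by limma, again against 3.13%. Tfam, which packs mitochondrial DNA, was at 5.97 ± 0.335 and 5.53 ± 0.726 FPKM. Polrmt, the mitochondrial RNA polymerase, had a log2 fold change of 0.10, Tfb2m, its transcription factor, -0.05 and Primpol, a primase, -0.07.

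Protein-coding genes that span at least 100 kb were also set beside the rest, because of the known link of Top1 and Top2b to long genes. The median log2 fold change was -0.01 over 2283 long genes and 0.02 over 12018 shorter ones. Of the long genes 23 were higher and 24 lower in PND at an unadjusted limma p below 0.05, and of the shorter genes 170 were higher and 134 lower, beside 1.73% higher and 1.4% lower of all genes tested.

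Markers of the cell types that could carry Top2a or Mki67 were measured beside them. Summed FPKM of 5 markers each of microglia, oligodendrocyte precursors, endothelial cells and neuroblasts overlapped between the groups, as did those of the other 5 marker lists. The sum of oligodendrocyte precursor markers lay between 8.83 and 14.7 FPKM in PND and between 10.6 and 16.5 FPKM in CON. That of microglial markers lay between 14.4 and 18.6 FPKM in PND and between 18.0 and 24.2 FPKM in CON. Of the 40 markers tested, 5 had an unadjusted p below 0.05 by limma, against 3.13% of all genes tested, with an adjusted p of 0.9999 each. These were P2ry12 of microglia (5.49 ± 1.36 FPKM in PND and 9.27 ± 1.50 in CON), Aqp4 of astrocytes (24.0 ± 2.14 and 30.8 ± 3.85) and Dlx1 of the neuroblast list (0.177 ± 0.0750 and 1.01 ± 0.678), which were lower in PND, and Gfap of astrocytes (21.8 ± 3.65 and 13.6 ± 1.10) and Ly6c1 of endothelium (5.79 ± 1.43 and 3.23 ± 0.117), which were higher. When the processing was changed, Aqp4 lost an unadjusted limma p below 0.05 under 5 of 17 alternatives. Markers of a list did not all go the same way. Log2 fold changes were above 0 for 3 of the 5 microglial markers and below 0 for 2 of the 5 endothelial markers. Of the 5 oligodendrocyte markers 4 were below 0, with a median of -0.19. The 4 haemoglobin genes of the erythroid list summed to 2.76 FPKM in PND replicate 1 and to at most 0.191 FPKM in the other samples. The part of these cell types in the Top2a values was not tested.

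Genes with a like pattern over the 6 samples were looked for with Top2a, Mki67, Top1 and Top2b only. The measure was Pearson's r of log2(FPKM + 0.1), among genes that averaged 1 FPKM or more. The 6 points share their libraries, and with them the sample differences by GC content described above. For Top2a, among 12323 genes, these were Kif21a, a neuronal kinesin (r = 0.987), Xkr6 (r = 0.985) and Usp6nl (r = 0.984). Kif21a was at 69.5, 70.8 and 70.2 FPKM in PND and at 76.0, 79.6 and 81.4 FPKM in CON. For Mki67 they were Cops4 (r = 0.988), Ints4 (r = 0.981) and Pex13 (r = 0.978). For Top1 they were Mtap (r = 0.997), Zfp638 (r = 0.996) and Id4 (r = 0.995), and for Top2b Gm17066 (r = 0.997), Rtf1 (r = 0.995) and Kmt2e (r = 0.995). With 6 points and so many genes searched, some high r is found for any pattern, so these names are a description.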

How the data were processed

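mRNA was measured in prefrontal cortex of 3 PND and 3 CON mice, with groups taken from the treatment labels. The deposited values were FPKM. In the study ribosomal RNA was removed, reads were filtered with Seqtk and aligned with HISAT2, and the authors counted fragments with StringTie, scaled them by TMM and converted them to FPKM. The submitters' processing notes name Bowtie 0.12.2 with mm8 and mm9 but give no role. The build and the use of strand were not given in the sources used here, and coordinates are those of GENCODE M21 on GRCm38.

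Symbols were matched by identifier for 20866 of 21006 genes. limma 3.58.1 (R 4.3.3, lmFit and eBayes with trend) was run on log2(FPKM + 0.1) over genes averaging 0.1 FPKM or more, two-sided. Depth was estimated from the steps of low values, of which 41.6% to 44.8% lay within 0.05 of a whole number (10% without steps). Fragment numbers are therefore estimates. The fits were tested on simulated data. The members, lists and tests were chosen with earlier results of these data known. Named genes were all 7 members, and from each list up to 4 with the smallest p and any with an unadjusted p below 0.05. The 3 genes most like each of Top2a, Mki67, Top1 and Top2b were also named. Others were named for their role, or, as with Cdk1, Ccnb1 and Cdk2, after their values were seen. Alternatives changed the pseudocount, filter, scaling, GC content, trend, replicate block and samples. Same-numbered samples did not pair, as their deviations correlated by -0.049, -0.45 and 0.027.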

Additional observations from a re-analysis of the deposited data

How the results depend on the processing

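The log2 fold change of Top2a kept its direction under all 16 alternatives that could be computed. It could not be computed with a filter at 1 FPKM, under which 4 of the 7 genes were tested. It passed an unadjusted limma p of 0.05 without the intensity trend (-0.63) and with voom (-1.08). In both, 1 of the 7 genes had an unadjusted p below 0.05, against 3.62% and 2.91% of all genes tested, and with voom 1 passed the cut-off of the study, as did 260 of 18076 genes. Leaving out 1 sample at a time gave Top2a values from -0.70 to -0.55, and 0 members passed in any of these fits. The count of replication and mitosis genes ranged from 0 to 1 across them, with 1 (Ccnb2) without PND replicate 3. With the replicate block, the value of Top2a was -0.63 (unadjusted limma p of 0.202) and it was -0.61 with GC correction and the block. The block changed no call among the members. With a pseudocount of 1 Top2a was at -0.13, and with 0.01 at -1.05.

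The small differences of the other members except Mki67 changed sign in places, and none was called on either side. Leaving out 1 sample at a time, the log2 fold change ranged from -0.28 to -0.026 for Mki67 (-0.28 without CON replicate 1, -0.035 without PND replicate 3 and -0.026 without CON replicate 3), from -0.14 to 0.0079 for Top1, from -0.24 to 0.11 for Top1mt, from -0.17 to 0.016 for Top2b, from -0.076 to 0.28 for Top3a and from -0.054 to 0.069 for Top3b. Among the genes that maintain mitochondrial DNA, it ranged from -0.21 to 0.098 for Tfb2m and from -0.40 to 0.42 for Polrmt. For Primpol it ranged from -0.17 (without PND replicate 3) to -0.011 (without PND replicate 1). Top3b was -0.0065 with quantile normalization and -0.036 with GC correction, with or without the block, and Polrmt was -0.0051 with GC correction, with or without it. Depth limits Top2a, with an estimated 7 to 17 fragments per sample. Aqp4 lost an unadjusted p below 0.05 under 5 of 17 alternatives, and the other 4 cell type markers named kept it wherever they were tested. Over all genes, 569 had an unadjusted p below 0.05, against 361 with the block, 331 with a filter at 1 FPKM and 960 without CON replicate 2. The cut-off of the study was passed by 241, against 25 with a pseudocount of 1, 59 with a filter at 1 FPKM and 388 without CON replicate 2.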
